A study of Mus musculus with 8 samples.

Results

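The genes described here are 10 markers of lung epithelium, measured in RNA of lung mesenchyme, the connective tissue that surrounds the branching airway. They were taken by symbol from the platform annotation, as Epcam, Cdh1, Nkx2-1, Sox2, Sftpc, Krt8, Krt18, Krt19, Shh and Foxa2, and were found as 15 of the 45101 probe sets on the array, or 10 of 18193 genes with a probe set of their own. All 10 matched a RefSeq gene by identifier. The tissue came from lungs of CD1 mouse embryos at e11.5 to e12.5 (days of gestation). Stalk pieces cultured for 12 h on plastic with 400 ng/ml of the secreted protein Wnt1 formed the first group, and stalk pieces cultured for 12 h in control medium formed the second. Mesenchyme from around the branch tips and mesenchyme from around the stalk behind them were profiled directly after dissection. Each of the 4 groups has 2 arrays, of total RNA amplified in 2 cycles. Nothing in the labels ties the 2 replicates of a group to different litters or animals. Their spread, on which every p-value here rests, may therefore be technical.

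Epithelium and mesenchyme of the lung lie side by side at this stage and signal to each other. Nkx2-1 and Foxa2 are transcription factors of the lung epithelial lineage, Sox2 is a transcription factor of the proximal airway epithelium, and Sftpc encodes a surfactant protein made by the distal epithelium. Epcam and Cdh1 encode adhesion proteins of epithelial cell surfaces, and Shh is a ligand that epithelium secretes and mesenchyme receives through Ptch1. Krt8, Krt18 and Krt19 encode keratins of simple epithelia and are also used by mesothelium, the lining of the lung surface. In bulk RNA, fewer cells of a type and less RNA per cell cannot be told apart.

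The promoters of Krt8 and Krt18 are shown because their proteins pair in the same filaments. With Krt8 read by 1420647_a_at, both genes also ranked the 4 culture arrays in the same order. The other 2 Krt8 probe sets ranked the control culture arrays the other way. The genes lie near each other on chromosome 15, with 2 lncRNA genes and 0 protein-coding genes between them in RefSeq. The sequences are from RefSeq on GRCm38.p6 and run from 250 bases before to 50 bases after the gene start, chr15:102004293-102004592 on the minus strand for Krt8 and chr15:102027966-102028265 on the plus strand for Krt18.
Krt8: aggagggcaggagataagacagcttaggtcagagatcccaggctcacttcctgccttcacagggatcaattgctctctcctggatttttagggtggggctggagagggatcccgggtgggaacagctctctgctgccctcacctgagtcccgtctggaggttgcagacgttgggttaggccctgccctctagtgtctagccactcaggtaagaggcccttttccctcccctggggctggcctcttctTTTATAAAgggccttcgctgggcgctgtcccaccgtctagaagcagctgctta
Krt18: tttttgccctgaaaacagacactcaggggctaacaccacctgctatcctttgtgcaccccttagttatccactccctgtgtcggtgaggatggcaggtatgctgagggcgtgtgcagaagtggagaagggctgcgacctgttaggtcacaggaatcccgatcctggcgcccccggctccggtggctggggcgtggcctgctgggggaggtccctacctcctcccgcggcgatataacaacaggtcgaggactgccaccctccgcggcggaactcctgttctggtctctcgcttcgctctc
Capitals mark matches, on either strand, to TATAAA (the TATA box), GGGCGG (the GC box) or TGANTCA (the AP-1 motif). Krt8 held 2 overlapping TATA box matches, one on each strand, and 0 matches to the other motifs. Krt18 held 0 matches to the 3 motifs. Over 32817 promoter windows of this length, 13.6% held the TATA box letters, 35.6% the GC box letters and 7.81% the AP-1 letters. A match describes these letters only, and a window without one says nothing about the factor. Promoter windows were at hand for 6 of the 10 genes.

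Markers of mesenchyme were bright on the uncultured arrays. Of 13 mesenchymal genes, 12 exceeded 298.6, the highest array median and a stand-in here for the noise level, on both arrays of tip and of stalk. Such signal was not particular to mesenchyme. Of 8 genes each, 6 mesothelial, 2 endothelial and 1 macrophage genes exceeded it in tip, and 5, 5 and 4 in stalk. The collagen chain Col3a1 was between 11149 and 26232 on all 8 arrays. The values are MAS5 intensities on a linear scale, set to about the same trimmed mean on every array, yet the array medians were 149 to 299 in culture and 76.5 to 99.8 without it. The 3' to 5' ratio of Actb, only a rough guide to RNA integrity in RNA amplified in 2 cycles, was also read. It lay between 6.81 and 24.4 on the culture arrays and between 2.02 and 4.52 on the others. Their part in the differences between cultured and uncultured stalk was not tested, and they cannot be told apart from culture itself.

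Each of the 5 keratin probe sets was above its array's median on all 8 arrays, and so was Epcam by one of its probe sets. All 10 probe sets of the 7 other genes, that one included, stayed under 298.6 on the 4 uncultured arrays. Most probe sets of any gene did so there, the medians of these arrays being 76.5 to 99.8. Krt19 on stalk replicate 1 and one Krt8 probe set on stalk replicate 2 were also under 298.6. On these arrays 8 of the 15 probe sets exceeded the array's own median, the 5 of the keratins among them. One probe set, the second of Sftpc, did not pass the filter on low values (above 96.6 on at least 2 arrays), and the other 14 did, so all 10 genes were tested.

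**Figure D1:**
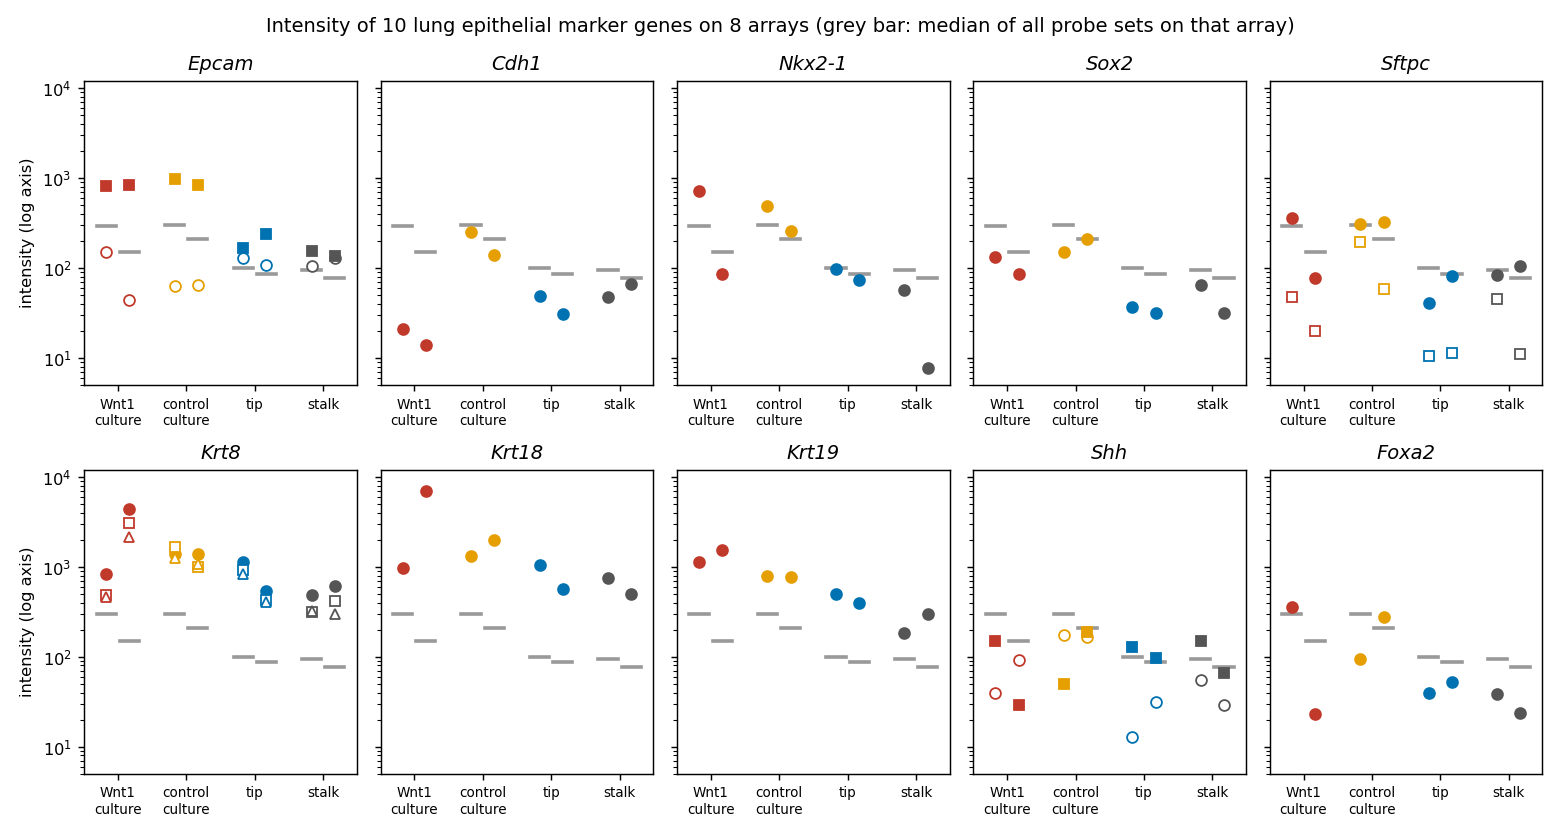
Intensity (log axis) of the 15 probe sets of 10 genes on 8 arrays, 2 per group; symbol shapes separate the probe sets of a gene, filled symbols the probe set used in the test, and grey bars the median of all probe sets on that array. The keratins lie above the grey bars in every group, while Cdh1 lies below them on all 8 arrays.

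Adhesion genes gave low or conflicting signals. Values below are for replicates 1 and 2 in that order. Cdh1, which encodes E-cadherin, had intensities of 21.2 and 13.9 in Wnt1 culture, 248 and 138 in control culture, 49.2 and 30.5 in tip and 47.8 and 65.8 in stalk. It was under the array's own median on all 8 arrays, and its Wnt1 and control culture values did not overlap. Epcam has 2 probe sets that disagreed. By 1447899_x_at it had 825 and 838 in Wnt1 culture, 970 and 839 in control culture, 167 and 238 in tip and 153 and 136 in stalk. By 1416579_a_at it had 150 and 43.9 in Wnt1 culture, 62.3 and 65.0 in control culture, 129 and 107 in tip and 105 and 130 in stalk. The first was higher on each culture array than on each uncultured one, and the second was not. The suffix _x_at marks a probe set whose probes may bind other transcripts. The 2 probe sets lay closer together on the uncultured arrays than in culture.

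The lineage transcription factors were dim. Nkx2-1 had 714 and 86.8 in Wnt1 culture, 495 and 258 in control culture, 97.8 and 73.7 in tip and 57.7 and 7.65 in stalk. Its 2 Wnt1 arrays spanned those of control culture, and tip did not overlap stalk. Foxa2 had 357 and 23.0 in Wnt1 culture, 93.8 and 278 in control culture, 39.9 and 51.9 in tip and 39.0 and 23.7 in stalk. One Wnt1 array of Foxa2 was thus lower than every uncultured array. Sox2 had 132 and 86.1 in Wnt1 culture, 151 and 212 in control culture, 37.3 and 31.6 in tip and 65.6 and 31.8 in stalk. It exceeded the array's own median on 1 of 8 arrays, Foxa2 on 2 and Nkx2-1 on 3.

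The secreted products were as low. Sftpc had 356 and 77.4 in Wnt1 culture, 308 and 326 in control culture, 41.2 and 81.8 in tip and 82.6 and 106 in stalk, by 1418639_at. Its other probe set was under the array's own median on all 8 arrays, with a highest value of 196 in control culture. Shh, by 1436869_at, had 148 and 29.1 in Wnt1 culture, 50.2 and 187 in control culture, 130 and 97.3 in tip and 151 and 66.1 in stalk. All 4 groups overlapped for this probe set. By 1427571_at Shh had 39.5 and 92.7 in Wnt1 culture, 173 and 166 in control culture, 12.8 and 31.2 in tip and 55.4 and 29.0 in stalk, under the array's own median throughout.

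Krt19, a keratin of simple epithelia, had 1120 and 1545 in Wnt1 culture, 784 and 774 in control culture, 502 and 391 in tip and 184 and 300 in stalk. Its order of groups was Wnt1 culture, control culture, tip and stalk, from high to low, and no neighbours in that order overlapped. Krt8, by 1420647_a_at, had 827 and 4384 in Wnt1 culture, 1373 and 1399 in control culture, 1118 and 537 in tip and 486 and 606 in stalk. Krt18, the partner of Krt8 in keratin filaments, had 961 and 6905 in Wnt1 culture, 1333 and 1965 in control culture, 1046 and 573 in tip and 754 and 496 in stalk. The group means of both stood in the same order as those of Krt19, but by these probe sets Wnt1 culture overlapped control culture and tip overlapped stalk. Both genes ranked the 4 culture arrays alike, with Wnt1 replicate 2 highest and Wnt1 replicate 1 lowest, while in stalk Krt8 was higher on replicate 2 and Krt18 on replicate 1. Wnt1 replicate 2 also had an Actb ratio of 6.81 and an array median of 149, against ratios of 21.2 to 24.4 and medians of 209 to 299 on the other 3 culture arrays, and its part in these values was not tested. The other 2 probe sets of Krt8 also had their lowest culture value on Wnt1 replicate 1, at 482 and 465, and their highest on Wnt1 replicate 2, at 3100 and 2151. Unlike Krt18, they had control culture replicate 1 above replicate 2, with 1655 and 1001 by 1423691_x_at and 1266 and 1083 by 1435989_x_at. Tip did not overlap stalk by either, with 924 and 427 against 318 and 412, and 822 and 407 against 324 and 297.

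Ranks within an array do not depend on the scaling of that array. The percentile of Krt19 among all probe sets of its array was 89.2 and 91.1 in Wnt1 culture, 83.3 and 83.6 in control culture, 77.0 and 74.3 in tip and 62.4 and 70.4 in stalk. For Nkx2-1 it was 80.8 and 33.7 in Wnt1 culture, 69.7 and 57.1 in control culture, 49.6 and 46.4 in tip and 38.4 and 12.7 in stalk. For Sox2 it was 29.5 and 33.5 in Wnt1 culture, 31.0 and 50.5 in control culture, 28.5 and 27.3 in tip and 41.5 and 32.1 in stalk. Its culture and stalk ranks overlapped, although its culture intensities all exceeded those of stalk. The rank of Epcam by 1416579_a_at lay between 16.7 and 31.5 in culture and between 52.0 and 59.1 on uncultured arrays, opposite to its other probe set at 84.2 to 87.3 in culture and 59.5 to 67.8 on uncultured arrays.

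**Figure D2:**
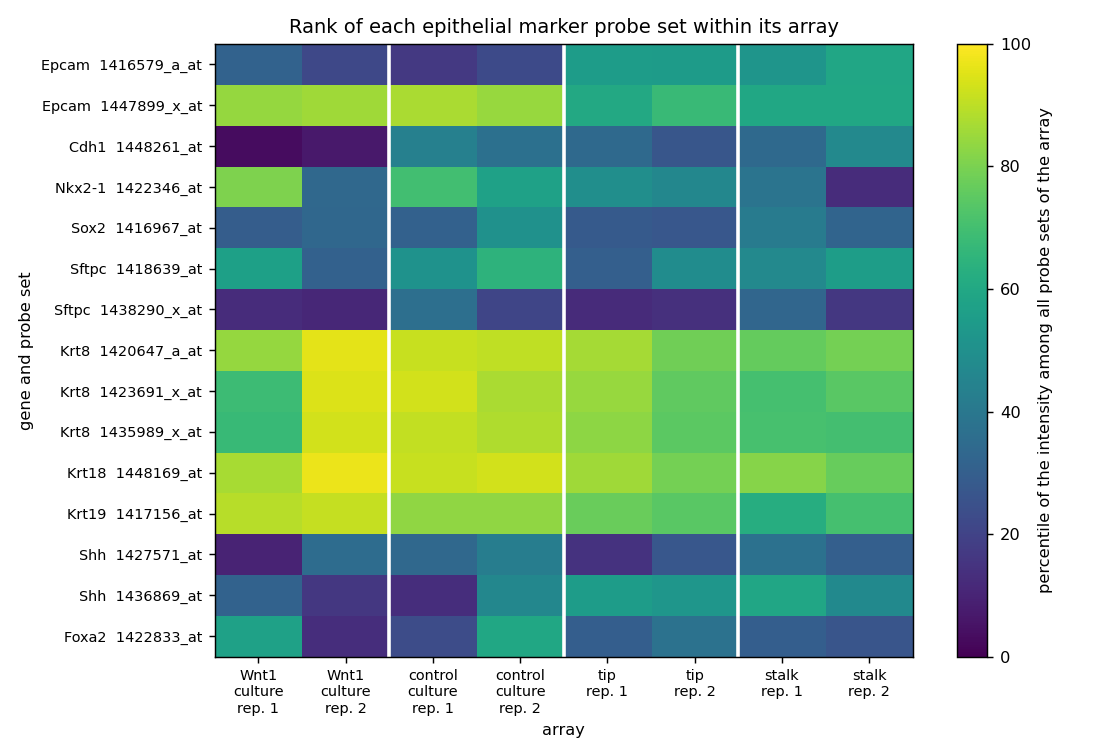
Percentile of each of the 15 probe sets (rows) among all probe sets of an array (8 columns, white lines between groups). Epcam 1447899_x_at lies at 84.2 to 87.3 in culture and at 59.5 to 67.8 on the other arrays, the 5 keratin probe sets are above 50 throughout, and Cdh1 is lowest on the Wnt1 arrays, at 3.43 and 6.95.

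Tip and stalk mesenchyme were compared first, the dissected positions of the series. Of the 10 genes, 0 passed an adjusted p of 0.05, as did 0 of all 16112 genes tested, which is 0% (limma, Benjamini-Hochberg over all genes, smallest adjusted p = 0.999925). At an unadjusted p under 0.05 there were 0 of the 10 and 91 of all genes (0.565%). Krt19 averaged 446 ± 78.4 in tip and 242 ± 82.3 in stalk (SD, n = 2 each), a log2 fold change of 0.80 ± 0.39 (SE). Fold changes are on the log2(intensity + 44) scale, which understates changes of dim genes. Krt8 averaged 828 ± 411 in tip and 546 ± 85.1 in stalk (0.48 ± 0.60), and Krt18 averaged 809 ± 335 in tip and 625 ± 183 in stalk (0.32 ± 0.67). Groups did not overlap for 5 of the 10 genes, 4 of them higher in tip and 1 lower, against 34.4% of all genes, 18.2% higher and 16.2% lower. The 10 genes had a median log2 fold change of 0.29, beside 0.01 for all genes tested. The 3 possible splits of 2 arrays against 2 limit an exact permutation p to 0.333 or more, and no such test was run.

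Mesothelial markers ran alongside the keratins in the uncultured arrays. The 8 markers summed to 7130 to 11583 in tip and 5836 to 5980 in stalk, with 0 of them at 0 in either group. Of their log2 fold changes 7 of 8 were above 0, as were 7 of 10 for the epithelial markers. The mesothelial median was 0.45, beside 0.01 for all genes, and 0 of the 8 passed. Upk3b, a uroplakin of mesothelium, had 3915 and 2550 in tip and 1892 and 1741 in stalk. Wt1, a mesothelial transcription factor, had 871 and 439 in tip and 386 and 403 in stalk. Tip replicate 1 was the highest uncultured array for both, as for Krt8, Krt18 and Krt19. That peak was not particular to mesothelial markers. It was shared by Dsp, a cell junction gene, and Mycn, a transcription factor gene, but not by Col3a1 or Ptch1. The 8 macrophage markers summed to 1160 on tip replicate 1 and to 3986 on tip replicate 2, against 3698 to 3843 in stalk. The part of these cells in the keratin values was not tested.

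Culture in control medium was then set against uncultured stalk. Krt19, Epcam by 1447899_x_at and Nkx2-1 rose, 3 of the 10 genes, and 0 fell, where 17.1% of all genes tested rose, 9.26% fell and 26.4% passed in either direction (limma). Krt19 averaged 779 ± 6.63 in control culture and 242 ± 82.3 in stalk (SD, n = 2 each), with a log2 fold change of 1.56 ± 0.39 (SE, limma, adjusted p = 0.017). Nkx2-1 averaged 377 ± 168 in control culture and 32.7 ± 35.4 in stalk (2.48 ± 0.75, limma, adjusted p = 0.033). With each array centred on its median, Krt19 was at 0.86 (adjusted p = 0.20) and Nkx2-1 at 1.78 (adjusted p = 0.056), and Epcam alone passed. Centring also turned the split of all genes, to 950 higher of 3340 called, beside 2759 higher of 4251 as deposited. The Nkx2-1 call was lost with quantile normalization (1.80, adjusted p = 0.16) and with values under 298.6 raised to it, a signal floor (0.33, adjusted p = 0.76). With that floor Krt19 was at 1.26 (adjusted p = 0.060). Epcam by 1447899_x_at averaged 904 ± 92.6 in control culture and 145 ± 12.4 in stalk (2.33 ± 0.40, limma, adjusted p = 0.0055), while 1416579_a_at had a change of -0.58 ± 0.59. A rise of Epcam is therefore stated for that probe set alone.

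The other 7 genes did not pass. Krt8 was at 1.28 ± 0.60 and Krt18 at 1.34 ± 0.67 (limma, adjusted p = 0.12 and 0.15). One of the other Krt8 probe sets, 1435989_x_at, passed when every probe set was tested on its own (1.78 ± 0.57, limma, adjusted p = 0.044). Foxa2 was at 1.49 ± 0.79, Sftpc at 1.39 ± 0.62, Sox2 at 1.30 ± 0.57 and Cdh1 at 1.20 ± 0.59, with limma adjusted p of 0.10 to 0.17. Shh had a change of 0.01 ± 0.67, and its other probe set 1427571_at, tested on its own, of 1.32 ± 0.59 without overlap (limma, adjusted p = 0.11). Culture and stalk did not overlap for 9 of the 10 genes, all higher in culture, against 71.5% of all genes, 46.1% higher and 25.4% lower. The median of the 10 was 1.36, beside 0.45 for all genes, and 0.20 with the signal floor. Without stalk replicate 1 or 2, 0 of the 10 genes passed, with 102 and 58 of all genes passing, while the changes were 2.39 and 2.26 for Epcam, 2.97 and 1.99 for Nkx2-1 and 1.26 and 1.86 for Krt19. Without control culture replicate 1, only Epcam did.

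Culture with Wnt1 was set against the same 2 uncultured stalk arrays, so this comparison shares them with the one above. Krt19 and Epcam by 1447899_x_at rose, 2 of the 10 genes, and 0 fell, where 9.35% of all genes rose, 6.88% fell and 16.2% passed in either direction (limma). Krt19 averaged 1332 ± 301 in Wnt1 culture and 242 ± 82.3 in stalk (SD, n = 2 each; 2.28 ± 0.39, SE, limma, adjusted p = 0.0063). Epcam by this probe set had a change of 2.22 ± 0.40 (limma, adjusted p = 0.0080), and by 1416579_a_at of -0.30 ± 0.59. Krt18 was at 2.01 ± 0.67, Krt8 at 1.74 ± 0.60 and Nkx2-1 at 2.12 ± 0.75 (limma, adjusted p = 0.058, 0.063 and 0.067). Krt18 and Krt8 passed without Wnt1 replicate 1, at 3.40 and 2.91 (limma, adjusted p = 0.0094 and 0.013). Nkx2-1, Sftpc and Foxa2 passed without Wnt1 replicate 2, at 3.39, 1.53 and 2.42 (limma, adjusted p = 0.0084, 0.043 and 0.021). Without either stalk array, 0 of the 10 passed, with 125 and 63 of all genes passing. With arrays centred on the median, 625 of 1978 called genes were higher, beside 1506 of 2615 as deposited. Sox2 was at 0.73 ± 0.57, Shh at -0.31 ± 0.67 and Cdh1 at -0.71 ± 0.59. Groups did not overlap for 7 of the 10 genes, 6 higher and 1 lower, against 66.9% of all genes, 41.5% higher and 25.5% lower, and the median of the 10 was 1.44, beside 0.35 for all genes.

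**Figure D3:**
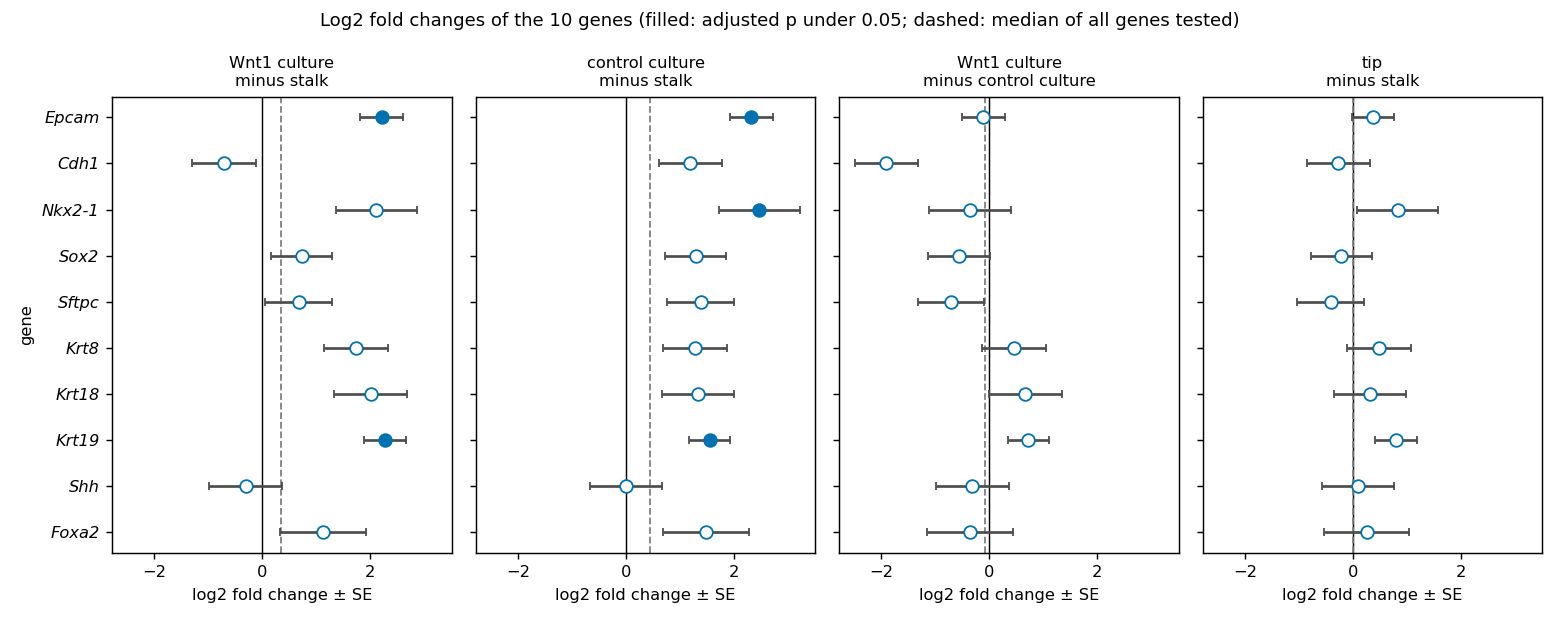
Log2 fold change ± SE of the 10 genes (rows) in the 4 comparisons, on the log2(intensity + 44) scale with 2 arrays per group; filled points have an adjusted p under 0.05 and the dashed line is the median of all genes tested. Krt19 and Epcam are filled against stalk in both cultures, Nkx2-1 in control culture, and 0 genes between the cultures or between tip and stalk.

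Mesothelial and macrophage markers were also read in culture. The 8 mesothelial markers summed to 7422 to 8970 in Wnt1 culture and 7172 to 9529 in control culture, against 5836 to 5980 in stalk, and 0 were at 0. In this list 1 gene passed in each culture against stalk, the uroplakin Upk1b, at 1.55 ± 0.42 with Wnt1 and 1.74 ± 0.42 in control culture (limma, adjusted p = 0.030 and 0.016). With quantile normalization the Wnt1 call was lost (1.60, adjusted p = 0.061), and without _x_at and _s_at probe sets both were, at 0.28 and 0.52 (adjusted p = 0.69 and 0.43). Upk3b had 2508 and 2200 in Wnt1 culture and 2364 and 3121 in control culture. These values were above both stalk arrays, at 1892 and 1741, and within the span of the 4 uncultured arrays. Macrophage markers summed to 11341 to 11738 in Wnt1 culture and 12519 to 22340 in control culture, against 3698 to 3843 in stalk, with 4 of 8 genes higher and 0 lower in each culture. Tyrobp, a signalling adaptor gene of myeloid cells, was at 2.58 ± 0.39 with Wnt1 and 1.95 ± 0.39 in control culture (limma, adjusted p = 0.0037 and 0.0093). Of 13 mesenchymal genes, 6 fell and 1 rose with Wnt1, and 7 fell and 1 rose in control culture. The transcription factor gene Zeb2 was at -2.83 ± 0.35 with Wnt1 and -2.02 ± 0.35 in control culture (limma, adjusted p = 0.0013 and 0.0059). Of 7 endothelial genes tested, 3 fell with Wnt1 and 4 in control culture, the VEGF receptor gene Kdr at -2.55 ± 0.35 and -1.99 ± 0.35 among them (limma, adjusted p = 0.0024 and 0.0063). Of all genes, 9.35% rose and 6.88% fell with Wnt1, and 17.1% rose and 9.26% fell in control culture. The part of these cells in the keratin, Epcam and Nkx2-1 values was not tested.

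Wnt1 and control culture were compared directly. Of the 10 genes, 0 passed, as did 0 of all 16112 genes (0%; limma, smallest adjusted p = 0.11). At an unadjusted p under 0.05 there were 1 of the 10 and 1297 of all genes (8.05%). That gene was Cdh1, which averaged 17.5 ± 5.16 in Wnt1 culture and 193 ± 78.0 in control culture (SD, n = 2 each), a log2 fold change of -1.91 ± 0.59 (SE, limma, adjusted p = 0.55). With the signal floor its change was 0, since all its values lay under 298.6. Krt19 had a change of 0.72 ± 0.39 (limma, adjusted p = 0.66), Krt18 of 0.67 ± 0.67 and Krt8 of 0.46 ± 0.60. The other 2 Krt8 probe sets, 1423691_x_at and 1435989_x_at, were at -0.05 ± 0.66 and -0.20 ± 0.57. The signs of Krt8 and Krt18 turned without Wnt1 replicate 2, to -0.72 and -0.73, as did those of Nkx2-1, Sftpc, Foxa2 and Shh, to 0.91, 0.15, 0.93 and 0.38. Wnt1 replicate 2 is the culture array with the lowest median and Actb ratio, as given above. Groups did not overlap for 4 of the 10 genes, 1 higher and 3 lower with Wnt1, against 26% of all genes, 10.1% higher and 15.9% lower. The median of the 10 was -0.34, beside -0.08 for all genes.

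Other epithelial genes were read from a list of 23, of which 22 had a probe set of their own and 18 were tested. In uncultured tissue 19 of 22 were under 298.6 on both arrays of tip and likewise of stalk, and the exceptions were Dsp, Krt7 and Spint2. Most probe sets on those arrays were also under that level, as given above. Dsp encodes desmoplakin, a protein of cell junctions, and had 2249 and 989 in tip and 1215 and 1289 in stalk. Against stalk, 5 of the 18 rose with Wnt1 and 8 in control culture, and 0 fell in either, where 9.35% and 17.1% of all genes rose. Grhl2, an epithelial transcription factor, had 461 and 277 in Wnt1 culture, 394 and 409 in control culture, 97.5 and 136 in tip and 86.9 and 64.1 in stalk. Its change was 1.76 ± 0.49 with Wnt1 and 1.90 ± 0.49 in control culture (limma, adjusted p = 0.033 and 0.019). Sftpb, another surfactant protein gene, was at 2.21 ± 0.52 and Spint1, a protease inhibitor gene, at 2.17 ± 0.65 in control culture against stalk (limma, adjusted p = 0.015 and 0.031). Elf5 encodes an epithelial transcription factor and Esrp2 an epithelial splicing regulator. They were at 2.43 ± 0.66 and 1.99 ± 0.60 with Wnt1 against stalk (limma, adjusted p = 0.031 and 0.042). Without Wnt1 replicate 1 Esrp2 was at -0.25, but by another of its probe sets, so the sign cannot be set against 1.99. By the probe set behind 1.99, Esrp2 had 563 and 274 in Wnt1 culture and 52.5 and 82.1 in stalk. The list medians, 0.97 with Wnt1 and 1.47 in control culture, were 0.03 and 0.11 with the signal floor. Quantile normalization left 0 and 2 of the 18 genes past the threshold.

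By position along the airway, 0 genes passed between tip and stalk. The distal list of 10 genes, several of which mesenchyme also uses, had a median log2 fold change of 0.24 (tip minus stalk), with the transcription factor gene Mycn at 0.70 ± 0.76 and the protease gene Napsa at 0.67 ± 0.73. The proximal list of 8 had 7 genes with a probe set and 6 tested, with a median of 0.22, and the epithelial transcription factor gene Klf5 at 0.86 ± 0.61 and the basal cell factor Trp63 at 0.72 ± 0.74. All 7 proximal genes were under 298.6 on the tip and the stalk arrays, as were most probe sets there. In culture, Klf5 rose against stalk, at 2.43 ± 0.61 with Wnt1 and 2.31 ± 0.61 in control medium (limma, adjusted p = 0.024 and 0.021), and Krt5, a basal cell keratin, rose in control medium (1.93 ± 0.57, adjusted p = 0.031). With quantile normalization 0 of the 6 proximal genes passed in either culture, with Klf5 at 1.98 and 1.52 (adjusted p = 0.081 and 0.13). The proximal list medians, 1.41 with Wnt1 and 1.46 in control culture, were 0.15 and 0 with the signal floor. Without Wnt1 replicate 1 Klf5 was at 1.37, but by another of its probe sets, so this value cannot be set against 2.43. By the probe set behind 2.43, Klf5 had 643 and 287 in Wnt1 culture and 23.8 and 71.4 in stalk. Of the distal list, Sftpb and Napsa were among 3 that rose in control culture, while Mycn fell by 3.31 on the log2 scale (limma, adjusted p = 0.014). Of all genes, 17.1% rose and 9.26% fell there. Napsa had 721 and 147 in control culture and 7.18 and 11.2 in stalk. It did not pass with quantile normalization (2.41, limma, adjusted p = 0.064) or with the signal floor (0.58, limma, adjusted p = 0.43). Quantile normalization left 1 of the 10 distal genes past the threshold. Mycn had 46.9 and 935 in control culture and 2681 and 3179 in stalk, so 1 array carries much of this, and the change was -1.60 without it (adjusted p = 0.030) and -0.20 with the probe sets of Mycn averaged (adjusted p = 0.73). Sox9, a transcription factor of the distal buds, was the 1 distal gene that passed with Wnt1 against stalk, where 6.88% of all genes fell. It was at -2.03 ± 0.48 (limma, adjusted p = 0.020), but at 0.13 with its probe sets averaged (adjusted p = 0.87).

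The mesenchymal side of Shh signalling was read for comparison with its ligand. Ptch1, the Shh receptor and a target of the pathway, had 778 and 644 in Wnt1 culture, 390 and 1063 in control culture, 8094 and 7594 in tip and 7723 and 9949 in stalk. It fell in both cultures against stalk, with log2 fold changes of -3.55 ± 0.41 with Wnt1 and -3.67 ± 0.41 in control culture (SE, limma, adjusted p = 0.0011 and 0.0012), by its probe set 1428853_at. Its dimmer probe set 1439663_at averaged 62.2 in Wnt1 culture, 170 in control culture and 149 in stalk, and did not pass in either comparison (-0.63 and 0.24). Gli1, which encodes a transcription factor that Shh signalling switches on, was at -1.71 ± 0.56 with Wnt1 and -2.11 ± 0.56 in control culture (limma, adjusted p = 0.053 and 0.021). Between Wnt1 and control culture Ptch1 was at 0.12 ± 0.41 and Gli1 at 0.40 ± 0.56, and between tip and stalk they were at -0.16 ± 0.41 and -0.43 ± 0.56. Of 10 hedgehog pathway genes tested, 5 fell and 0 rose in each culture against stalk, where 6.88% of all genes fell with Wnt1 and 9.26% in control culture. With quantile normalization 2 passed with Wnt1 and 4 in control culture. Gli3, which like Gli1 encodes a transcription factor acted on by Shh signals, had changes of -1.85 ± 0.33 with Wnt1 and -1.42 ± 0.33 in control culture, and Smo, the membrane signal transducer, of -1.54 ± 0.34 in control culture (limma, adjusted p = 0.0082, 0.015 and 0.013). In those comparisons Shh itself was at -0.31 ± 0.67 with Wnt1 and 0.01 ± 0.67 in control culture, and by 1427571_at at 0.33 ± 0.59 and 1.32 ± 0.59, with its 2 probe sets between 12.8 and 151 in uncultured tissue.

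**Figure D4:**
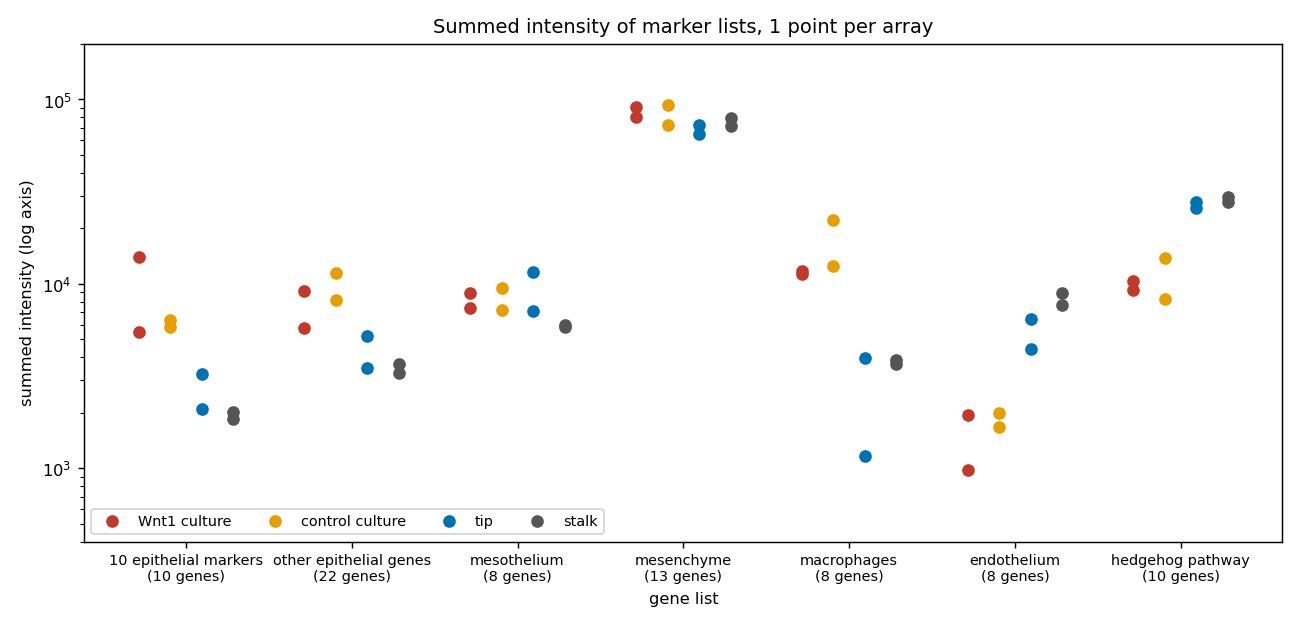
Summed intensity (log axis) of 7 gene lists, 1 point per array and 2 arrays per group, each gene by its tested or brightest probe set. The hedgehog pathway genes lie at 8241 to 13864 in culture and at 25939 to 29634 in tip and stalk, while the 10 epithelial markers lie at 5462 to 13988 in culture and at 1839 to 3229 in tip and stalk; the 3 keratins give 12834 of the 13988 on Wnt1 replicate 2.

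Sums follow the brightest genes. On Wnt1 replicate 2 the 3 keratins summed to 12834 and the 7 other genes to 1155, against 2908 to 4139 for the keratins and 2237 to 2554 for the others on the remaining culture arrays. The median percentile of the 10 genes on that array was 33.6, against 60.4 to 68.95 on the remaining culture arrays and 50.7 to 53.1 in tip and stalk.

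Genes outside the lists whose pattern was most like that of Epcam or Shh were taken by Pearson correlation of log2 values over the 8 arrays, among 8824 genes with a mean above 298.6. For Epcam by 1447899_x_at these were Arhgap30, Ppib, Wnt4, Lgals1 and Atp5d, with r of 0.992 to 0.996. For Shh by 1436869_at they were Diaph1, Kmt5b, Colec12, Chd8 and 2610507B11Rik, with r of 0.872 to 0.933. These Shh values were under 298.6 on all 8 arrays, so their pattern cannot be told from background. Each r is among the highest of 8824, a choice that itself favours high values. The points share 4 culture and 4 uncultured arrays, and no p is given.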

How the data were processed

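RNA of 8 mouse lung mesenchyme samples was hybridised to 1-colour Affymetrix arrays. The deposited values are linear intensities. The submitters' processing notes name MAS5 and Affymetrix Expression Console as the authors' software. Detection calls were not used here. Of 45101 probe sets, 64 are controls, 34945 have 1 gene symbol, 932 several and 9160 none, and only probe sets with 1 symbol were used. A probe set entered the test if 2 or more arrays exceeded 96.6, the 40th percentile over the whole table, and the brightest on average stood for its gene. Values were tested as log2(intensity + 44), 44 being the 25th percentile, with limma 3.58.1 in R 4.3.3 (lmFit, eBayes with an intensity trend), in 1 fit over all 4 groups. P-values are two-sided and Benjamini-Hochberg adjusted over 16112 genes, with a threshold of 0.05. The scripts were tested on simulated data. The number of arrays, 2 per group, limits precision, and other limits were not ranked against it. Alternatives covered the pseudocount, filter, a signal floor, normalization, the choice of probe set, the samples fitted, and each replicate left out.

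The 10 genes and the lists were chosen with earlier results of these data known. All 10 genes are described with every probe set. From each other list and comparison, up to 3 genes past the threshold by p could be named, or the 2 with the largest change where none passed, and Ptch1 and Gli1 always. The text names some of these, not all. Members of those lists given by intensity alone, Dsp, Upk3b, Wt1 and Col3a1, were chosen after their values were seen. Of the listed genes, 5 had no probe set of a single symbol. Coordinates and promoters are from RefSeq (GRCm38.p6).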

Additional observations from a re-analysis of the deposited data

How the results depend on the processing

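Up to 22 alternatives were run. Between tip and stalk, and between Wnt1 and control culture, 0 of the 10 genes passed under each of them. For control culture against stalk, 3 genes passed, and 1 with the signal floor or with arrays centred on their median, 5 when only the 2 groups were fitted, and 0 to 3 when a replicate was left out. For Wnt1 culture against stalk, 2 genes passed, and 1 with probe sets averaged per gene or without _x_at and _s_at probe sets, 5 with the replicate number as a block, and 0 to 5 when a replicate was left out. Without _x_at and _s_at probe sets the change of Epcam reversed, to -0.58 in control culture and -0.30 with Wnt1 (limma, adjusted p = 0.45 and 0.72); its 2 probe sets disagree. The labels do not say that a replicate number marks a shared litter or day. Deviations of same-numbered arrays correlated at -0.08 between tip and stalk, and at 0.14, 0.15 and 0.30 among stalk and the 2 cultures, which with 2 pairs does not settle whether they pair. Under the block Krt8, Krt18 and Nkx2-1 also passed for Wnt1 culture against stalk, and 3 genes passed for control culture against stalk. Counts over all genes moved more: control culture against stalk gave 4251 genes, 1382 with quantile normalization and 728 with the signal floor, and Wnt1 culture against stalk 2615, 785 and 330. A leave-out leaves 1 array in a group, assumed to vary like the others. Levels near the array medians cannot be told from background.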
